A study of Equus caballus with 6 samples.

Results

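Genes that report on fibroblast growth factor (FGF) and ERK signalling were followed in the 2 tissues of the day 8 horse (Equus caballus) blastocyst. The set comprised the ETS transcription factors ETV4 and ETV5, the feedback inhibitors SPRY1, SPRY2 and SPRY4, the phosphatases DUSP4, DUSP5 and DUSP6 and the receptors FGFR1 and FGFR2. They were taken by gene symbol, and 9 of the 10 symbols were analysed among the 12270 rows of the table. DUSP4 was not analysed here. The 3 inner cell mass (ICM) libraries, 15, 22 and 25, came from the cells inside the blastocyst, and the 3 trophectoderm (TE) libraries, 16, 23 and 24, from its outer epithelium. All blastocysts had formed in vivo in superovulated mares and were exposed to the protease mix Pronase. TE was separated mechanically and ICM by immunosurgery (lysis of the remaining outer cells with antibody and complement), so tissue and isolation method cannot be told apart. The labels speak of individual blastocysts but name no mares, so a p-value here reflects only how far these libraries spread.

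FGF ligands bind receptor tyrosine kinases, which pass the signal through adaptors to RAS, RAF, MEK and the kinase ERK. Active ERK switches on genes that act in turn on the pathway: Sprouty proteins restrain it near the receptor, dual-specificity phosphatases (DUSP) remove the phosphates from MAP kinases, and the ETS factors ETV4 and ETV5 carry the response to target genes. In the mouse blastocyst, FGF from the epiblast directs neighbouring ICM cells towards hypoblast, the endoderm layer, and also maintains trophoblast stem cells in culture.

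The libraries held 6526212 to 10686659 reads over the listed genes. Levels are RPKM (reads scaled for gene length and depth), and differences are ICM minus TE on the log2(RPKM + 1) scale, on which changes of low genes look smaller than they are. ICM 25 stood apart: its Pearson correlations across the 9436 genes tested were 0.864 and 0.895 with ICM 15 and 22 and 0.897 to 0.904 with the TE libraries. It was thus closer to each TE library than to either ICM library. ICM 15 and 22 correlated at 0.942 and the TE libraries with each other at 0.976 to 0.980. In the marker lists, 10 of the 12 listed epiblast markers summed to 439, 448 and 135 RPKM in ICM 15, 22 and 25 and to 186 to 248 in TE. For 5 of the 10, every ICM value lay above every TE value, an order that 6.81% of all genes tested showed. Among these was SOX2, with 84, 115 and 10 reads in ICM 15, 22 and 25 and 0 reads in all TE libraries. ZFP42 had every TE value above every ICM value, and POU5F1, DNMT3B, SALL4 and LIN28A overlapped. For hypoblast, 11 markers summed to 125, 127 and 74.0 RPKM in these ICM libraries and to 66.5 to 73.3 in TE. Of these, 3 had every ICM value above every TE value and 0 had the reverse. For trophectoderm, 9 markers summed to 50.6 to 83.8 RPKM in ICM and 159 to 200 in TE. Every TE value lay above every ICM value for 8 of the 9, against 17.8% of all genes tested. Of the 12 blood and cumulus cell markers 5 had a row, with sums of 3.44 to 11.02 RPKM in ICM, highest in ICM 25, and 1.74 to 2.33 in TE. These sums move with tissue and with ICM 25, and their part in the results was not tested. In such bulk samples, fewer cells of a type and less RNA per cell cannot be told apart.

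ETV4, ETV5, SPRY4 and DUSP5 were higher in ICM, by 4.58- to 6.30-fold in mean RPKM. SPRY2 and FGFR1 had higher means in ICM and DUSP6 a higher mean in TE, and none of these 3 passed the test. SPRY1 and FGFR2 lay below the filter of 1 RPKM in at least 3 libraries and are given as values. Thus the test called 4 of the 7 genes, all with ICM above TE (limma, adjusted p under 0.05), while 1.87% of all 9436 genes tested were called in either direction and 0.933% higher in ICM. The 3 ICM values lay above the 3 TE values for 4 of these 7 genes, against 6.81% of all genes tested. No gene of the 7 had all TE values above all ICM values, an order that 17.8% of all genes tested showed. SPRY1, left out by the filter, did have that order. ETV4 and SPRY4 reached 1 RPKM in ICM libraries only, and ETV5 in these and in TE 24. The filter thus kept these genes through the tissue where they were higher. The genes were also chosen with earlier results of these data known. The counts over the 7 genes, also beside the shares of all genes, are therefore description only. The median difference was 1.33 over the 7 genes and -0.15 over all genes tested.

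**Figure D1:**
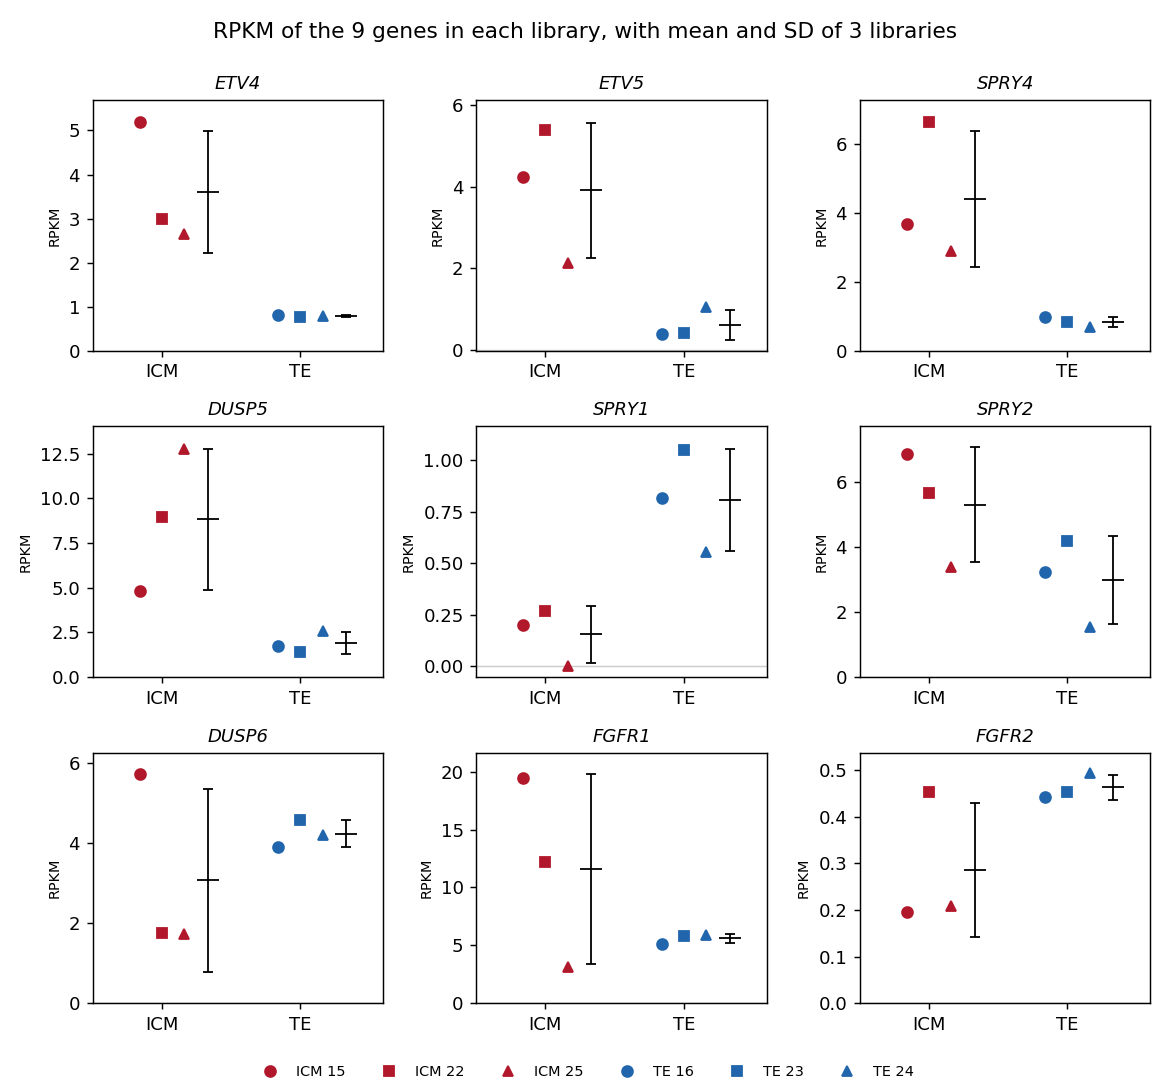
RPKM (vertical axes, a scale for each gene) of the 9 genes in each ICM library (red) and TE library (blue), with the mean and SD of 3 libraries in black beside them. The ICM and TE points are apart for ETV4, ETV5, SPRY4 and DUSP5 with ICM higher and for SPRY1 with TE higher, and they overlap for the other 4 genes.

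ETV4 and ETV5 belong with ETV1 to the PEA3 group of ETS factors, which serve as transcriptional outputs of FGF signalling. ETV4 stood at 5.20, 2.99 and 2.64 RPKM in ICM 15, 22 and 25 and at 0.81, 0.76 and 0.79 RPKM in TE 16, 23 and 24. Every ICM library was thus above every TE library, and the TE values were nearly equal. The means were 3.61 ± 1.39 RPKM in ICM and 0.79 ± 0.03 in TE (SD, n = 3 each), with a log2 difference of 1.33 (SE 0.27, limma adjusted p = 0.047). The TE values of ETV4 rest on 35, 24 and 33 reads, and the 24 reads of TE 23 have an exact Poisson 95% interval of 15.4 to 35.7 reads (counting error only), which is wider than the spread between the TE libraries.

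ETV5 stood at 4.22, 5.38 and 2.12 RPKM in ICM 15, 22 and 25 and at 0.39, 0.43 and 1.046 RPKM in TE 16, 23 and 24. The lowest ICM library, ICM 25, remained above the highest TE library, TE 24. The means were 3.91 ± 1.65 and 0.62 ± 0.37 RPKM (SD, n = 3 each), and the log2 difference was 1.56 (SE 0.32, limma adjusted p = 0.049). TE values of ETV5 rest on 16, 13 and 42 reads, of which the 13 reads of TE 23 have a Poisson 95% interval of 6.92 to 22.2 reads. The table gives coordinates without naming a build, and places ETV4 on chromosome 11 (19818447 to 19832426) and ETV5 on chromosome 19 (24183486 to 24234068).

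ETV1 lay below the filter and was added after its values were seen. It stood at 6.87, 2.67 and 0.51 RPKM in ICM 15, 22 and 25, from 588, 278 and 43 reads, and at 0, 0.075 and 0.11 RPKM in TE 16, 23 and 24, from 0, 5 and 10 reads. All 3 PEA3 factors were therefore higher in each ICM library than in any TE library. ETV1 spread the most within ICM and its mean was 53.5-fold that of TE. Fitted without a filter, its log2 difference was 1.73 (SE 0.50) and did not pass (limma adjusted p = 0.14).

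Among the other ETS factors, 11 were tested and 0 were called, against 1.87% of all genes tested. Their differences ran from -1.21 to 0.28, with a median of -0.18. At an unadjusted p under 0.05 only ELF3 would count among these. ELF3, an ETS factor of epithelia, had the smallest p and lay on the TE side, at 2.16, 6.84 and 2.50 RPKM in ICM and 9.18, 9.23 and 9.28 RPKM in TE, a log2 difference of -1.21 (SE 0.35, limma adjusted p = 0.13). Every TE library was above every ICM library for ELF3. GABPA, ELF1 and ETS2, picked after their values were seen, were abundant in both tissues, at 19.1, 16.3 and 11.9 RPKM in ICM and 22.0, 21.8 and 11.5 RPKM in TE.

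SPRY4, a Sprouty inhibitor of receptor tyrosine kinase signalling, stood at 3.66, 6.62 and 2.88 RPKM in ICM 15, 22 and 25 and at 0.97, 0.84 and 0.70 RPKM in TE 16, 23 and 24. ICM 22 held the most, and all ICM values exceeded the TE values by a wide margin. The means were 4.39 ± 1.97 and 0.84 ± 0.14 RPKM (SD, n = 3 each), and the log2 difference was 1.49 (SE 0.29, limma adjusted p = 0.045). The reads behind the TE values were 30, 19 and 21. SPRY4 lies on chromosome 14 (34800013 to 34801192), and its gene model holds 1180 bases.

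SPRY2, another Sprouty inhibitor, stood at 6.84, 5.66 and 3.37 RPKM in ICM 15, 22 and 25 and at 3.23, 4.18 and 1.54 RPKM in TE 16, 23 and 24. ICM 15 and 22 were above all TE libraries, whereas ICM 25 lay among them. The log2 difference of 0.68 (SE 0.34, 95% interval -0.10 to 1.46) was not called (limma adjusted p = 0.36). SPRY1 was very low in ICM, with 8, 13 and 0 reads in ICM 15, 22 and 25 (0.20, 0.27 and 0 RPKM), against 35, 33 and 23 reads in TE 16, 23 and 24 (0.82, 1.052 and 0.55 RPKM). All TE values of SPRY1 were above all ICM values, with a mean 5.21-fold higher in TE, but the fit without a filter did not call it (log2 difference -0.64, SE 0.20, limma adjusted p = 0.16). SPRY3, named after its values were seen, also had its higher mean in TE, at 2.09, 0.49 and 1.33 RPKM against 0.51, 0.35 and 0 RPKM in ICM, with overlap between the groups.

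Within each library, SPRY4 can be set against SPRY2 free of any scaling between libraries. The ratio of SPRY4 to SPRY2 RPKM was 0.54, 1.17 and 0.86 in ICM 15, 22 and 25 and 0.30, 0.20 and 0.46 in TE 16, 23 and 24. The groups did not overlap, and the ratio was 2.69-fold higher in ICM as a geometric mean (exact permutation test, two-sided, p = 0.1, the smallest p that 3 libraries against 3 allow). In all, 5 such ratios were chosen after the values were seen, and over these the adjusted p was 0.125 (Benjamini-Hochberg). Their numerators (SPRY4, DUSP5 and ETV5) did not themselves overlap between the tissues. The ratios thus partly repeat those differences and are description only.

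DUSP5, a nuclear phosphatase specific for ERK, stood at 4.82, 8.94 and 12.7 RPKM in ICM 15, 22 and 25 and at 1.75, 1.39 and 2.56 RPKM in TE 16, 23 and 24. In contrast to the ETS factors and SPRY4, it was highest in ICM 25, and all ICM values were above the TE values. The means were 8.83 ± 3.95 and 1.90 ± 0.60 RPKM (SD, n = 3 each), and the log2 difference of 1.69 (SE 0.34, limma adjusted p = 0.047) ranked 61st among the 9436 genes tested. Its ICM reads were 111, 250 and 288 and its TE reads 43, 25 and 61. DUSP5 lies on chromosome 1 (20869370 to 20880731).

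DUSP6, the cytoplasmic counterpart of DUSP5 and likewise an ERK phosphatase, had another order. It stood at 5.72, 1.77 and 1.74 RPKM in ICM 15, 22 and 25 and at 3.91, 4.59 and 4.21 RPKM in TE 16, 23 and 24. ICM 15 was above all TE libraries, while ICM 22 and 25 were below them. The log2 difference was -0.50 (SE 0.36, 95% interval -1.32 to 0.33, limma adjusted p = 0.54). Its reads were 394, 148 and 118 in ICM and 287, 247 and 300 in TE.

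The ratio of DUSP5 to DUSP6 RPKM within a library was 0.84, 5.06 and 7.31 in ICM 15, 22 and 25 and 0.45, 0.30 and 0.61 in TE 16, 23 and 24. It was higher in each ICM library than in any TE library, by 7.22-fold as a geometric mean (exact permutation p = 0.1, two-sided, adjusted p = 0.125 over the 5 ratios). DUSP1, an immediate-early phosphatase that acts on several MAP kinases, was the other phosphatase called and was higher in TE. DUSP1 stood at 1.78, 4.82 and 3.82 RPKM in ICM and 13.1, 11.6 and 19.8 RPKM in TE, a log2 difference of -1.86 (SE 0.34, limma adjusted p = 0.038). Leaving out any library other than ICM 25 ended the DUSP1 call (limma adjusted p = 0.056 to 0.17). The ratio of DUSP5 to DUSP1 was 2.71, 1.85 and 3.33 in ICM and 0.13, 0.12 and 0.13 in TE (exact permutation p = 0.1, two-sided). Neither gene overlapped between the tissues, and they lay on opposite sides. The separation of this ratio and its p were thus fixed by the values of the genes and add no support. DUSP5 was the more abundant of the pair in every ICM library and DUSP1 in every TE library.

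Of the 10 MAP kinase phosphatases listed, 5 were tested, with DUSP5 called on the ICM side and DUSP1 on the TE side, and their median difference was -0.50. DUSP7, a cytoplasmic ERK phosphatase, stood at 12.3, 14.6 and 5.55 RPKM in ICM and 16.3, 17.8 and 28.8 RPKM in TE, with no overlap and no call (limma adjusted p = 0.25).

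FGFR1 was the most abundant of the 9 genes in ICM by mean RPKM and spread widely there. It stood at 19.5, 12.2 and 3.12 RPKM in ICM 15, 22 and 25 and at 5.14, 5.81 and 5.87 RPKM in TE 16, 23 and 24. ICM 15 and 22 were above the TE libraries, and ICM 25 was below all of them. With all libraries, the means were 11.6 ± 8.18 and 5.61 ± 0.41 RPKM (SD, n = 3 each) and the log2 difference of 0.65 (SE 0.51, 95% interval -0.51 to 1.81) was not called (limma adjusted p = 0.58). Without ICM 25 the difference was 1.32 (SE 0.23) and passed (limma adjusted p = 0.013), in a fit that called 11.5% of all genes tested. FGFR1 lies on chromosome 27 (7326045 to 7364762).

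For the 4 genes called, a position of ICM 25 above TE was favoured by the call itself and is given only as values. On the log2(RPKM + 1) scale, ICM 25 exceeded the TE mean by 1.03 for ETV4, 0.97 for ETV5, 1.08 for SPRY4 and 2.26 for DUSP5, and stood 0.68 below it for FGFR1. The ratio of ETV5 to FGFR1 RPKM was 0.22, 0.44 and 0.68 in ICM 15, 22 and 25 and 0.075, 0.074 and 0.18 in TE 16, 23 and 24 (exact permutation p = 0.1, two-sided). For SPRY4 to FGFR1 it was 0.19, 0.54 and 0.92 in ICM and 0.19, 0.14 and 0.12 in TE, where ICM 15 lay within the TE range (exact permutation p = 0.2, two-sided, and adjusted p = 0.2 over the 5 ratios).

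**Figure D2:**
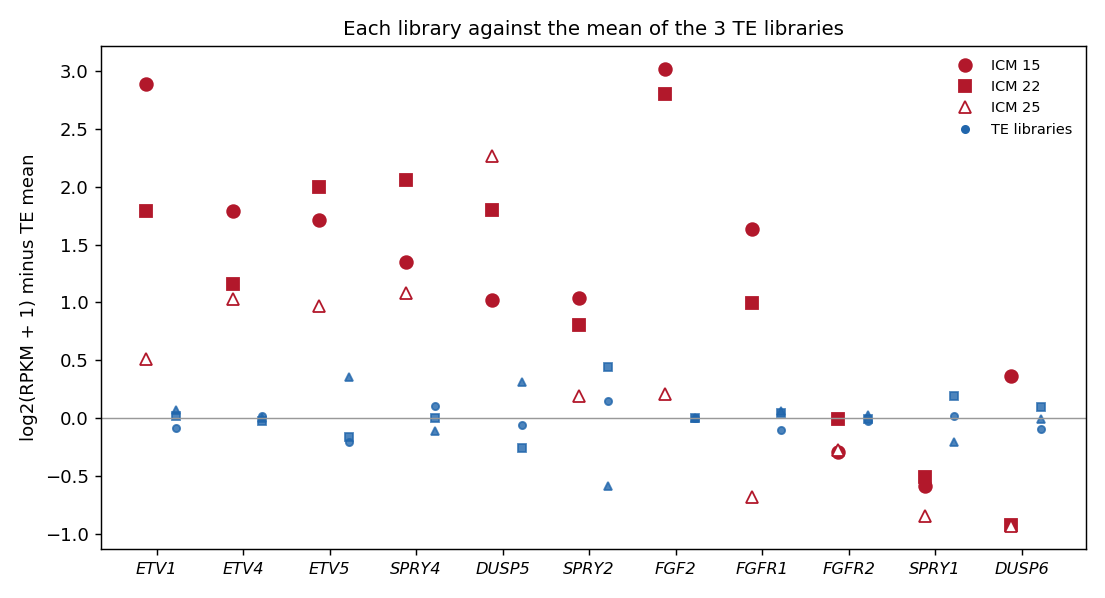
Log2(RPKM + 1) of each library minus the mean of the 3 TE libraries (vertical axis), for 9 genes of the set and for ETV1 and FGF2 (horizontal axis), with ICM in red (ICM 25 as open triangles) and TE in blue. ICM 25 lies below all TE libraries for DUSP6, SPRY1, FGFR1 and FGFR2, within their range for SPRY2, 0.21 above the TE mean for FGF2, and 0.97 to 2.26 above the TE mean for ETV4, ETV5, SPRY4 and DUSP5.

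FGFR2 was low throughout, at 0.20, 0.45 and 0.21 RPKM in ICM 15, 22 and 25 and 0.44, 0.45 and 0.49 RPKM in TE 16, 23 and 24, from 20 to 56 reads per library. ICM 22 lay within the TE range and the other ICM libraries below it. This row is placed on a separately named scaffold, and its level is uncertain because a row with the symbol FGFR on chromosome 1 (11211478 to 11312912) has coordinates that cover 98.9% of the span given for FGFR2 (11211306 to 11313873). That row lies between ATE1 and WDR11, which also flank FGFR2 in the RefSeq gene table of assembly TB-T2T. The FGFR row held more reads, with 0.91, 2.80 and 1.85 RPKM in ICM 15, 22 and 25 and 2.998, 3.73 and 2.50 RPKM in TE 16, 23 and 24. Its mean was also higher in TE, its groups overlapped, and it was not called (log2 difference -0.56, SE 0.30, limma adjusted p = 0.40). Whether reads of 1 gene were divided between both rows was not tested.

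By mean RPKM, the order in ICM was FGFR1, DUSP5 (8.83), SPRY2 (5.29), SPRY4 (4.39), ETV5 (3.91), ETV4 (3.61), DUSP6 (3.08), FGFR2 (0.29) and SPRY1 (0.16). From FGFR1 to DUSP6 each neighbour differed from the next by less than the larger of their SDs, and so did FGFR2 and SPRY1, so the only step clear of the spread was that from DUSP6 to FGFR2. In TE the order was FGFR1 (5.61), DUSP6 (4.24), SPRY2 (2.98), DUSP5 (1.90), SPRY4 (0.84), SPRY1 (0.81), ETV4 (0.79), ETV5 (0.62) and FGFR2 (0.46). There the steps from FGFR1 to DUSP6 and from DUSP5 to SPRY4 exceeded the SDs, while DUSP6, SPRY2 and DUSP5 were not clear of each other as neighbours, nor were the genes from SPRY4 to FGFR2. By the means alone, DUSP6 stood above ETV4, ETV5, SPRY4 and DUSP5 in TE and below all of them in ICM. In ICM its step to ETV4 was within the spread, and ICM 15 had the other order. There DUSP6 (5.72 RPKM) was above ETV4 (5.20), DUSP5 (4.82), ETV5 (4.22) and SPRY4 (3.66).

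The pathway around these genes was described from lists by role. Without the 10 symbols of the set, 105 other genes were listed, 65 had a row and 51 were tested. The calls among the 51 were 0 on the ICM side and 2 on the TE side (DUSP1 and FOS). Over all genes tested, 1.87% were called in either direction and 0.933% higher in ICM, and calls in each list are to be read against these shares. With both rescalings and with library weights, 2 of the 51 were called on the ICM side (EPHA4 and FLRT3) and 3 on the TE side. These fits have their own shares over all genes tested, in either direction. The shares were 2.03% with median of ratios rescaling, 2.18% with quantile normalization and 8.05% with library weights. The median difference of the 51 genes was -0.10, close to that of all genes tested.

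Among 22 FGF ligands, FGF2 and FGF18 could be analysed, and FGF4 was not analysed here. FGF2, named after its values were seen since it was below the filter, had 46, 47 and 1 reads in ICM 15, 22 and 25 (7.10, 5.97 and 0.16 RPKM) and 0 reads in all TE libraries. ICM 25 held only 1 read of it. Against a floor of 3 reads over the TE group (0.161 RPKM), the ICM mean of 4.41 RPKM was at least 27.4-fold higher. The gene model is only 264 bases long, and ICM 25 (0.157 RPKM) lay below this floor, so the fold rests on ICM 15 and 22. Fitted without a filter, the log2 difference of FGF2 was 2.01 (SE 0.63) and did not pass (limma adjusted p = 0.17). FGF18 stood at 0.50, 1.12 and 1.45 RPKM in ICM and 1.01, 2.93 and 4.91 RPKM in TE and was not called (log2 difference -0.86, SE 0.40, limma adjusted p = 0.32).

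Of the other receptors and co-receptors, KLB, the beta-Klotho co-receptor for endocrine FGFs, stood at 4.55, 3.23 and 0.56 RPKM in ICM and 1.59, 2.05 and 0.995 RPKM in TE. As with FGFR1, ICM 15 and 22 were above all TE libraries and ICM 25 was below them, and there was no call (limma adjusted p = 0.70). FGFR3 and FGFR4, named after their values were seen, were low in both tissues. FGFR4 stood at 0.98, 1.27 and 0.55 RPKM in ICM and 0.28, 0.17 and 0.21 RPKM in TE, and FGFR3 at 0.44, 0.96 and 0.60 against 0.27, 0.39 and 0.26 RPKM. Neither overlapped between the tissues, and neither passed when fitted without a filter (limma adjusted p = 0.18 for FGFR4 and 0.39 for FGFR3).

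The core of the cascade was expressed in both tissues with smaller differences than the 4 genes called. The 9 adaptors and RAS genes tested had a median difference of -0.14, and the 9 RAF, MEK and ERK genes tested lay between -0.72 and 0.46. The calls were 0 in either list, against 1.87% of all genes tested, a share that leaves few or no calls for lists this short. At an unadjusted p under 0.05 there were also 0 in either, against 1592 of all 9436 genes tested. The adaptor GAB1 stood at 23.4, 20.4 and 26.7 RPKM in ICM and 15.2, 17.8 and 15.4 RPKM in TE (limma adjusted p = 0.30), and the adaptor GRB2 at 10.7, 14.3 and 13.2 against 19.4, 18.0 and 17.6 RPKM (adjusted p = 0.31). Neither overlapped between the tissues, GAB1 with ICM higher and GRB2 with TE higher. Among the kinases, MAPK3 (ERK1) had means of 4.30 ± 2.23 RPKM in ICM and 7.29 ± 1.57 in TE, BRAF 7.16 ± 1.53 and 4.88 ± 0.64 RPKM, and the MEK scaffold LAMTOR3 40.0 ± 17.2 and 46.7 ± 2.22 RPKM.

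Of 16 genes in the list of inhibitors, 12 were tested, SPRY4 alone was called, and their median difference was 0.31. The list also held FLRT3, which is not an established inhibitor but a membrane protein that binds FGF receptors and is itself induced by FGF. FLRT3 stood at 23.1, 17.3 and 9.24 RPKM in ICM 15, 22 and 25 and 4.93, 2.56 and 5.30 RPKM in TE 16, 23 and 24. The groups did not overlap and the log2 difference was as large as that of DUSP5, but it missed the threshold (1.69, SE 0.37, limma adjusted p = 0.060). It passed with median of ratios rescaling (adjusted p = 0.028), quantile normalization (0.029), library weights (0.0070) and without ICM 25 (0.0065). SPRED2, a Sprouty-related inhibitor of RAF activation, stood at 4.41, 11.9 and 7.23 RPKM in ICM and 2.77, 2.86 and 4.51 RPKM in TE (limma adjusted p = 0.21), with ICM 15 just below the highest TE library.

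Among ERK output genes outside the set, FOS, an immediate-early transcription factor, was called higher in TE, at 42.7, 34.6 and 56.0 RPKM against 4.55, 17.9 and 8.07 RPKM in ICM 15, 22 and 25 (log2 difference -2.18, SE 0.42, limma adjusted p = 0.045). The FOS call was lost without ICM 15 or any TE library (adjusted p = 0.11 to 0.19), with a pseudocount of 0.1 (0.054), with no filter (0.053) and with a filter of 5 RPKM (0.0504). EGR1, another immediate-early factor, stood at 146, 120 and 154 RPKM in TE and 43.2, 79.4 and 29.1 RPKM in ICM, without overlap, and missed the threshold (log2 difference -1.56, SE 0.35, adjusted p = 0.069). EGR1 passed with both rescalings, with library weights and without ICM 22 or ICM 25 (adjusted p = 0.022 to 0.037). The receptor EPHA4 lay on the other side, at 4.40, 3.69 and 2.08 RPKM in ICM and 0.72, 1.03 and 0.86 RPKM in TE (log2 difference 1.19, SE 0.27, adjusted p = 0.070), and passed with both rescalings, library weights and without ICM 25 (adjusted p = 0.0087 to 0.034). Of the 8 output genes tested, FOS alone was called. ETV4, ETV5, SPRY4 and DUSP5 therefore stood on the ICM side while FOS, EGR1 and DUSP1 stood on the TE side of the same libraries.

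**Figure D3:**
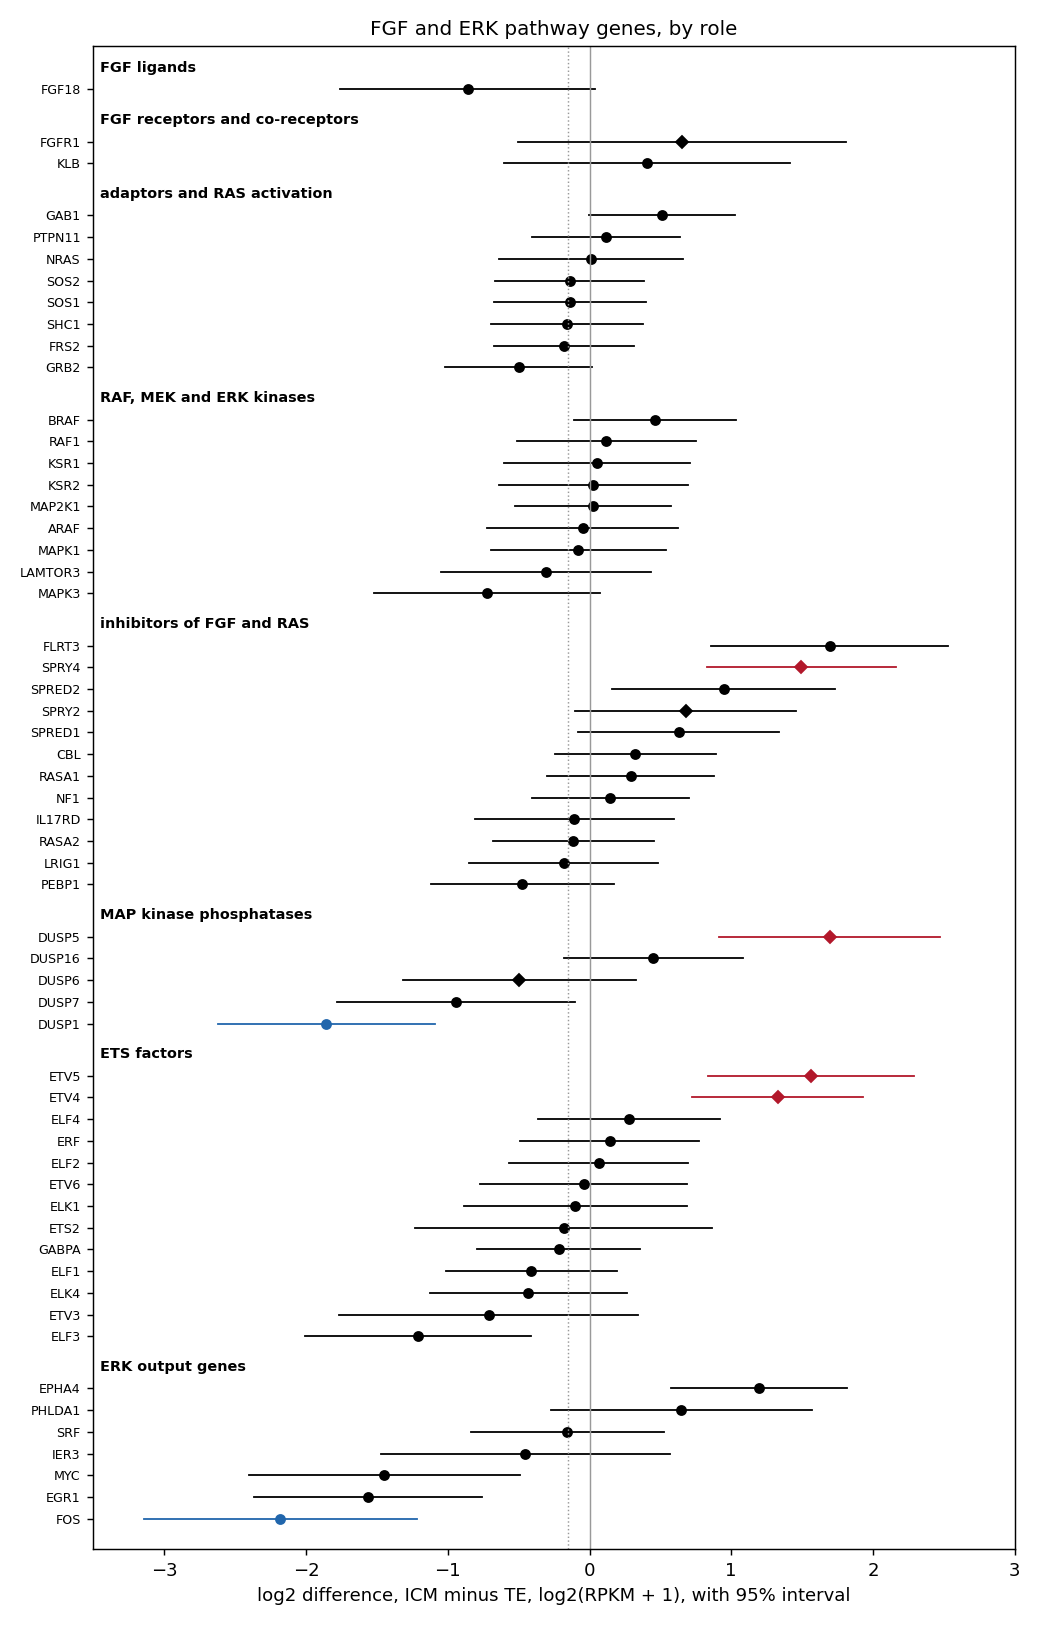
Log2 difference, ICM minus TE on the log2(RPKM + 1) scale, with its 95% interval (horizontal axis), for pathway genes grouped by role, with diamonds for the genes of the set, red for genes called higher in ICM, blue for genes called higher in TE and black for the rest. The dotted line is the median of all genes tested (-0.15), and the intervals of the adaptors and kinases all include 0. FLRT3 is drawn with the inhibitors, where it was listed, although it is not an established inhibitor.

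The genes whose pattern over the 6 libraries was most like each called gene were taken by Pearson's r of log2(RPKM + 1), as a description. With 6 libraries in 2 tissues, likeness of this degree is common: 72 genes had an r over 0.95 with ETV4, 102 with ETV5, 53 with SPRY4 and 45 with DUSP5. For ETV4 these were led by GATM, a creatine synthesis enzyme (r = 0.998), JMJD1C, a histone demethylase family member (r = 0.996), and LMO7 (r = 0.994). JMJD1C stood at 7.25, 4.93 and 4.45 RPKM in ICM and 1.595, 1.74 and 1.82 RPKM in TE and was itself called higher in ICM (limma adjusted p = 0.047). For ETV5 they were CHML (r = 0.998), RAI14 (0.997) and SPSB1 (0.994), for SPRY4 RGS5, a regulator of G protein signalling (0.994), HIST2H2AA3 (0.992) and LOC100054113 (0.987), and for DUSP5 the tyrosine kinase ABL2 (0.988), ATXN7 (0.988) and the kinase MAP4K4 (0.986). Of these 12 genes, JMJD1C alone was called, and its choice for likeness to ETV4 favoured that call. None of the 12 stood in the pathway lists, and no 2 of the called genes shared a gene among them.

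All 4 calls lay close to the threshold, with adjusted p between 0.045 and 0.049, and none of the 4 genes had an overlap between ICM and TE. Leaving out any library other than ICM 25 ended all 4 calls (limma adjusted p from 0.051 to 0.27). Fitting without a filter (0.059 to 0.061) and voom on the reads recovered from the table (0.061 to 0.080) also ended them. The log2 differences lay between 1.09 and 2.68 in the settings that tested these genes, which do not share 1 log scale. The filter of 5 RPKM left all 4 untested. Without ICM 25 the 4 calls held (adjusted p from 0.0065 to 0.023). In the authors' deposited table, the DESeq adjusted p-values were 2.36e-07 for ETV4, 3.75e-14 for ETV5, 4.79e-08 for SPRY4 and 3.2e-09 for DUSP5. They were 0.000563 for FGFR1, 0.0351 for SPRY1, 0.1005 for SPRY2, 0.386 for DUSP6 and 0.489 for FGFR2. FGFR1 was below 0.05 there and not in the limma fit. SPRY1 was also below 0.05 there, but the filter left it out of the limma fit, and without a filter it did not pass (limma adjusted p = 0.16).

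**Figure D4:**
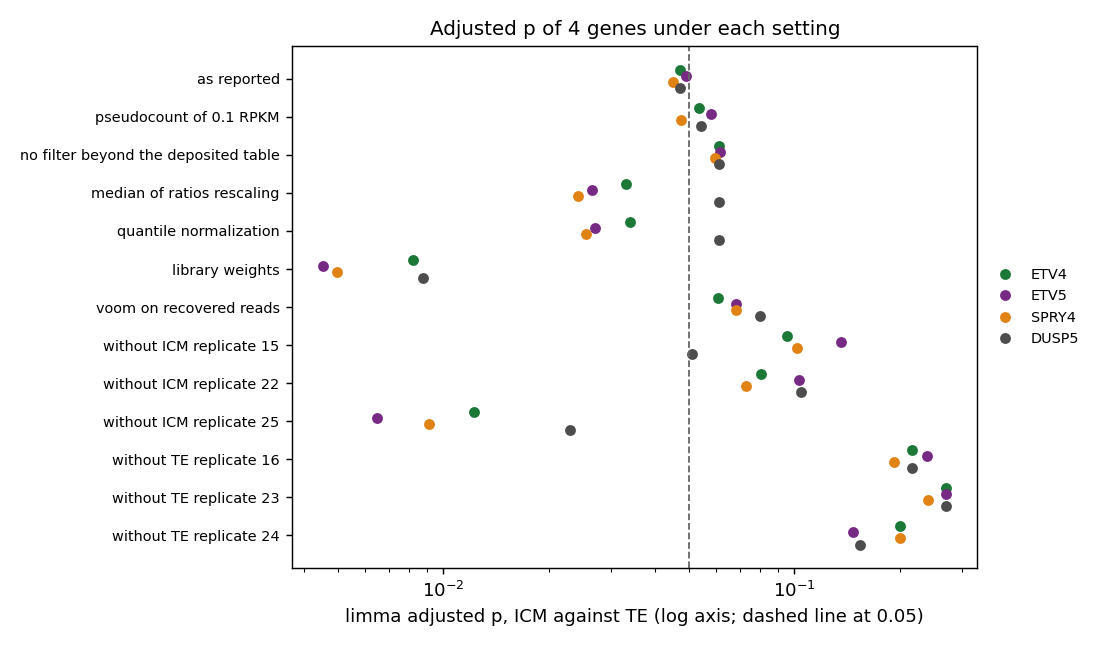
Limma adjusted p of ETV4, ETV5, SPRY4 and DUSP5 (horizontal log axis, dashed line at 0.05) as reported and under each alternative that tested them (rows). Points move left without ICM 25 or with library weights and right of the line when any other library is left out.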

How the data were processed

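RNA of 3 ICM and 3 TE samples was measured by RNA-seq. Per the labels' protocols, the kits were Arcturus Picopure for RNA, Nugen Ovation for amplified cDNA (V1 for the samples but V2 for the series) and TruSeq DNA for libraries. The authors deposited 1 table with RPKM per library, per the file headers. It also gives DESeq's baseMean (a signal: the mean normalized count), the fold change as a ratio, its log2 value, and a raw and an adjusted p-value from the authors. FastQC and DESeq are named in the submitters' processing notes. Aligner, counter and build: not given in the sources used here. A row's second-highest library never lay below 0.40 RPKM.

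RPKM times the factor baseMean over mean RPKM, divided by its smallest step in each library, gave whole reads (tolerance 0.001) for 100% of values up to 1000 reads. Gene lengths follow from that factor, scaled on the rows with the most per base of genome span, taken as single-exon genes. With no molecular identifiers in the amplified cDNA, counting intervals and floors cover counting error only. Strand was not stated.

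The test was limma 3.58.1 (R 4.3.3) on log2(RPKM + 1), with a trended prior, over genes reaching 1 RPKM in 3 or more libraries, two-sided, Benjamini-Hochberg over all genes, threshold 0.05. The test was checked on simulated data. Single ratios were compared by exact permutation (scipy 1.17.1). Alternatives were no filter, a filter of 5 RPKM, a pseudocount of 0.1, median of ratios rescaling, quantile normalization, library weights, voom on recovered reads and leaving out each library. The genes and lists were chosen with earlier results of these data known. Named were all genes of the set, in each list the genes called and the 3 with the smallest p, and for each of 4 genes the 3 most alike; others are marked, and 1 gene is not reported here. All 10 symbols are listed by RefSeq (TB-T2T), used only for names and neighbours. Sequences of these genes were not used here.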

Additional observations from a re-analysis of the deposited data

How the results depend on the processing

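As reported, limma called 176 genes (88 higher in each tissue), 4 genes of the set and 2 other pathway genes. In the same order, these counts were 114, 0 and 1 with no filter, 112, 1 and 1 with a pseudocount of 0.1, and 81, 0 and 1 with a filter of 5 RPKM, under which only FGFR1 of the set was tested. They were 125, 0 and 2 by voom, 192, 3 and 5 with median of ratios rescaling, 206, 3 and 5 with quantile normalization, and 760, 4 and 5 with library weights. Median of ratios rescaling moved the median of all genes from -0.15 to 0.0053 and the calls to 128 higher in ICM and 64 in TE. Leaving out 1 library gave 0 to 1086 genes, 0 to 5 genes of the set and 0 to 6 other pathway genes: 18, 76 and 1086 genes without ICM 15, 22 and 25, and 0, 1 and 1 without TE 16, 23 and 24. The highest values came without ICM 25. Without TE 16, where limma called 0 genes, 983 had an unadjusted p under 0.05, and 4 or 5 genes of the set had one in each fit that called 0 of them, except with the filter of 5 RPKM, where 0 did.

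The log2 difference of ETV4 missed the threshold at 1.33 with no filter, 2.002 with the pseudocount of 0.1 and 2.11 by voom, and ranged from 1.09 to 1.48 over the libraries left out. ETV5 missed it at 1.56, 2.49 and 2.68 and ranged from 1.34 to 1.86. SPRY4 missed it at 1.49 with no filter and 2.31 by voom and ranged from 1.21 to 1.70. DUSP5 missed it at 1.69, 2.09 and 2.12 in the same 3 settings, and at 1.85 and 1.81 with median of ratios and quantile rescaling, and ranged from 1.41 to 2.03. The cause was not tested. No gene of the set changed direction in any fit; of the other genes refitted, LAMTOR3 did without ICM 25 (from -0.31 to 0.031), with leave-one-out values from -0.61 to 0.031. No paired analysis was possible because no replicate number occurs in both tissues. Depth limits the low genes: ETV4, ETV5, SPRY1 and SPRY4 each had under 50 reads in every TE library, and FGFR2 had 20 to 56 in every library.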

Other observations

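Further genes of the pathway lists stayed below the filter and stood in no comparison above. DUSP8, a MAP kinase phosphatase, was at 0.39, 1.08 and 1.41 RPKM in ICM 15, 22 and 25 and 0.11, 0.19 and 0.21 RPKM in TE 16, 23 and 24, in the same order over the ICM libraries as DUSP5. The receptor EPHA2 was at 0.46, 1.91 and 3.85 RPKM in ICM and 0.31, 0.41 and 0.61 RPKM in TE, so that ICM 15 lay within the TE range and ICM 25 was the highest. FOSL1, an AP-1 factor, had 0.00, 0.42 and 1.38 RPKM in ICM and 0.09, 0.00 and 0.09 RPKM in TE. The TE values of DUSP8 rest on 5, 6 and 9 reads and those of FOSL1 on 2, 0 and 2. Fitted without a filter, none of DUSP8, EPHA2 and FOSL1 passed (limma adjusted p = 0.19, 0.26 and 0.39). MYC, which passed the filter, stood at 1.89, 5.11 and 0.90 RPKM in ICM and 6.03, 7.25 and 10.8 RPKM in TE, without overlap and without a call (limma adjusted p = 0.13). DUSP5, DUSP8, EPHA2 and FOSL1 were thus highest in ICM 25, and ETV1, ETV4, FGFR1, FGF2 and KLB highest in ICM 15. These 9 genes were chosen after their values were seen, and the order of single libraries was not tested.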
